A study of Mus musculus with 24 samples.

Results

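The clustered protocadherins are a family of cell-surface proteins encoded side by side in 3 gene clusters, called alpha, beta and gamma. Members were taken by symbol from the deposited expression table, and 56 of its 19953 genes matched: 12 in the alpha cluster, 22 in the beta cluster and 22 in the gamma cluster. The 22 gamma genes fell into 12 of type A, 7 of type B and 3 of type C. Pcdha6 and Pcdhac1 were not analysed here. Pcdhgb8 is annotated as a polymorphic pseudogene and was kept because its symbol met the rule.

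Clustered protocadherins belong to the cadherin superfamily and carry extracellular cadherin repeats that bind the same isoform on a neighbouring cell. In the alpha and gamma clusters each gene has a variable first exon with its own promoter, which is spliced to constant exons shared by the whole cluster, whereas each beta gene is encoded by its variable exon alone. In neurons the choice of promoter depends on the DNA-binding protein CTCF and on cohesin, and the resulting mix of isoforms lets a neuron recognise its own branches. The C-type genes at the 3′ ends of the alpha and gamma clusters are regulated apart from the others, and Pcdhgc3 is the gamma isoform best known from cells other than neurons.

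Stranded polyA RNA sequencing covered 24 libraries of mouse embryonic stem cells (mESC) and their differentiated progeny, in 8 groups of 3. Wild type (WT) cells were set beside 3 mutants: Mll1-KO, Mll2-KO, and the double-KO that lacks both. MLL1 and MLL2 are histone H3 methyltransferases encoded by Kmt2a and Kmt2b. On day 0 the cells grew on gelatin in 15% FBS with LIF, the cytokine that keeps mESC undifferentiated, and on day 4 they had been in 10% FBS and 1 µM retinoic acid for 4 days, a protocol for differentiation into several lineages. The protocol describes a starting mESC line in which Mll2 can be deleted by an inducible Cre, and Mll1 was removed from it by CRISPR editing with a pair of guides on either side of the deleted region. Whether the WT libraries are the same line left untreated, and how many Mll1-KO clones were used, was not given. Mll2-KO and double-KO cells had received 800 nM 4-hydroxytamoxifen for 48 h, and WT and Mll1-KO cells were untreated. Loss of Mll2 and the drug therefore cannot be told apart in any comparison below. The labels do not say that the 3 libraries of a group came from separate cultures, so p-values measure only the spread between these libraries.

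Kmt2a had 1097, 1047 and 1121 normalized counts (reads divided by the size factor of the library) in the day 0 WT libraries, and 20.6 to 43.0 in the Mll1-KO and double-KO libraries of that day. On day 4 it lay between 2029 and 2239 in WT and between 42.1 and 131.8 in those mutants, so the Mll1 labels were met. Kmt2b was not lowered to a like degree: it lay between 2804 and 2900 in day 0 WT and between 2380 and 2798 in day 0 Mll2-KO. A count over the whole gene cannot show the deletion of some exons, so it checks nothing on the Mll2 label, and the libraries are named as labelled. Depth was 17.7 to 22.8 M reads per library on day 0 and 10.7 to 17.1 M on day 4.

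The clusters take up a small part of these transcriptomes. All 56 members together held 0.0105% of the normalized counts in day 0 WT and 0.0246% in day 4 WT. A library gave 1749 to 4114 reads to the gamma cluster, 2 to 406 to the beta cluster and 4 to 40 to the alpha cluster. At least 10 normalized counts in 3 or more of the 24 libraries were reached by all 22 gamma genes, by 8 beta genes (Pcdhb14 and Pcdhb16 to Pcdhb22) and by 2 alpha genes (Pcdha10 and Pcdhac2). Gene tests were run on the members that met this minimum within the libraries compared: 22 on day 0, all of them gamma genes, and 32 on day 4 and across days. The other 14 beta and 10 alpha genes were too low to test and entered the cluster sums only.

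In GENCODE release M21 on the mm10 build the 3 clusters lie in a row on the plus strand of chromosome 18. The 10 alpha genes with a position span 36930184 to 37187661, the 22 beta genes 37264938 to 37524479, and the 22 gamma genes 37661793 to 37841873. Pcdha10 and Pcdha11 could not be placed by symbol. Each placed alpha transcript has 4 exons, of which the last 3 are constant and hold 2860 bases, 48.6% to 54.9% of the transcript. Each gamma transcript also ends in 3 constant exons, with 2116 to 2119 bases or 41.7% to 45.9% of its length. The beta genes have 1 exon of 2588 to 8695 bases. Reads from constant exons carry nothing that ties them to a first exon, and how the authors' counting shared them out is not stated in these sources. Values of single alpha and gamma members, and sums or shares of type A, B or C genes, are uncertain to that extent. The sum over every gene of a cluster does not change with how reads are shared within it. The alpha sum lacks Pcdha6 and Pcdhac1, so it could change with reads shared with these genes. Beta members have no constant exons, although their coding exons resemble each other.

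The first comparison asked how the clusters differ between WT mESC and WT cells after 4 days of differentiation. All 3 clusters were higher on day 4. The alpha sum was 9.19, 3.04 and 5.44 normalized counts in the day 0 WT libraries and 31.5, 28.1 and 27.1 in the day 4 WT libraries, a ratio of means of 4.91. The beta sum was 13.0, 15.2 and 6.21 on day 0 and 209, 185 and 134 on day 4, a ratio of 15.4. The gamma sum was 1685, 1819 and 1852 on day 0 and 3765, 3583 and 3620 on day 4, a ratio of 2.05. The libraries of the 2 days did not overlap for any cluster, and the gamma cluster held most of the counts on both days.

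**Figure D1:**
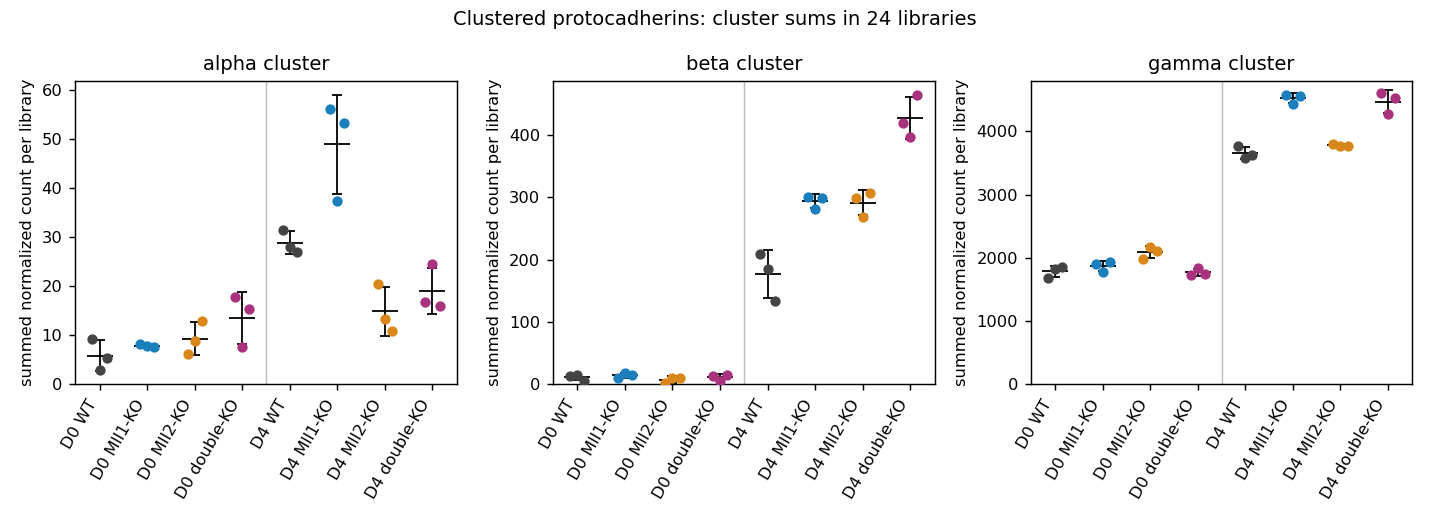
Summed normalized counts of the alpha, beta and gamma clusters in each of the 24 libraries, by group; points are libraries and bars are the mean ± SD of 3 libraries. Each cluster is higher on day 4, and on day 4 the beta sum is highest in double-KO (426 ± 33.7) while the alpha sum is lowest in Mll2-KO (14.9 ± 5.05).

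Among all 15114 genes tested across days, 82.9% were called (43% higher and 39.9% lower), meaning a Benjamini-Hochberg adjusted p below 0.05 in limma's test on log2(normalized count + 1). Of the 32 members tested, 26 rose and 3 fell, and their median log2 fold change was 1.95 against 0.044 over all genes. The beta and alpha members met the minimum only through day 4 libraries, so their rises follow in part from that choice and are given as values. With scaling to library totals the median over all genes moved from 0.044 to 0.166, and the gamma sum from 1.03 to 1.16 on the log2 scale.

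Pcdhgc3, the broadly expressed C-type isoform, had 688, 759.5 and 792 normalized counts in the day 0 WT libraries and 1602, 1564 and 1463 on day 4. It rose by 1.05 on the log2 scale (SE 0.068, adjusted p = 5.24e-14). Per kilobase of transcript, which allows levels to be set side by side between genes, it was the highest member on both days, at 159 ± 11.4 on day 0 and 329 ± 15.2 on day 4 (SD, n = 3). The next members per kilobase were Pcdhga12 (32.1 ± 2.11), Pcdhga1 (31.4 ± 3.89) and Pcdhga11 (29.6 ± 5.61) on day 0, and Pcdhga2 (44.4 ± 2.33), Pcdhga7 (43.6 ± 4.80) and Pcdhga10 (41.7 ± 3.39) on day 4. The levels within each of these trios differed by less than the largest SD among them. On day 0 the trio lay well above the next member, Pcdhga4 (12.6 ± 1.15). On day 4 the next member, Pcdhgb4 (41.5 ± 3.71), lay close to the trio. The share of Pcdhgc3 in the gamma sum was similar on the 2 days, 41.8% ± 0.984 and 42.2% ± 1.64.

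The type A and type B genes, whose first exons alternate along the cluster, did not all move the same way in WT. Pcdhgb4 had 15.3, 3.80 and 31.1 normalized counts on day 0 and 181, 186 and 213 on day 4, the largest rise among gamma genes (log2 3.84, SE 0.409, adjusted p = 1.73e-09). Pcdhga10 had 27.6, 47.8 and 33.4 on day 0 and 179.9, 212 and 200.3 on day 4 (log2 2.44, SE 0.212, adjusted p = 2.71e-11). Pcdhgb6, Pcdhgc4 and Pcdhga3 rose by 3.35, 2.56 and 2.47 on the same scale. Every day 4 library lay above every day 0 library for each of these genes.

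Pcdhga12 went the other way, with 151, 170.1 and 169 normalized counts on day 0 and 25.4, 42.1 and 25.9 on day 4. It fell by 2.39 on the log2 scale (SE 0.222, adjusted p = 1.04e-10). Pcdhgb8, the pseudogene next to it, fell by 1.71 (SE 0.313, adjusted p = 1.6e-05) from 44.4, 38.7 and 45.0 to 13.2, 15.0 and 9.43. Pcdhga1, the first gene of the cluster, fell by 0.98 (SE 0.211, adjusted p = 0.000134). Pcdhga4, Pcdhga8 and Pcdhga11 did not pass the test, with log2 differences of 0.097, 0.11 and 0.10. The order of the gamma genes along the chromosome and their log2 differences had a Spearman rho of -0.0582 over the 22 genes, which share libraries and constant exons.

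**Figure D2:**
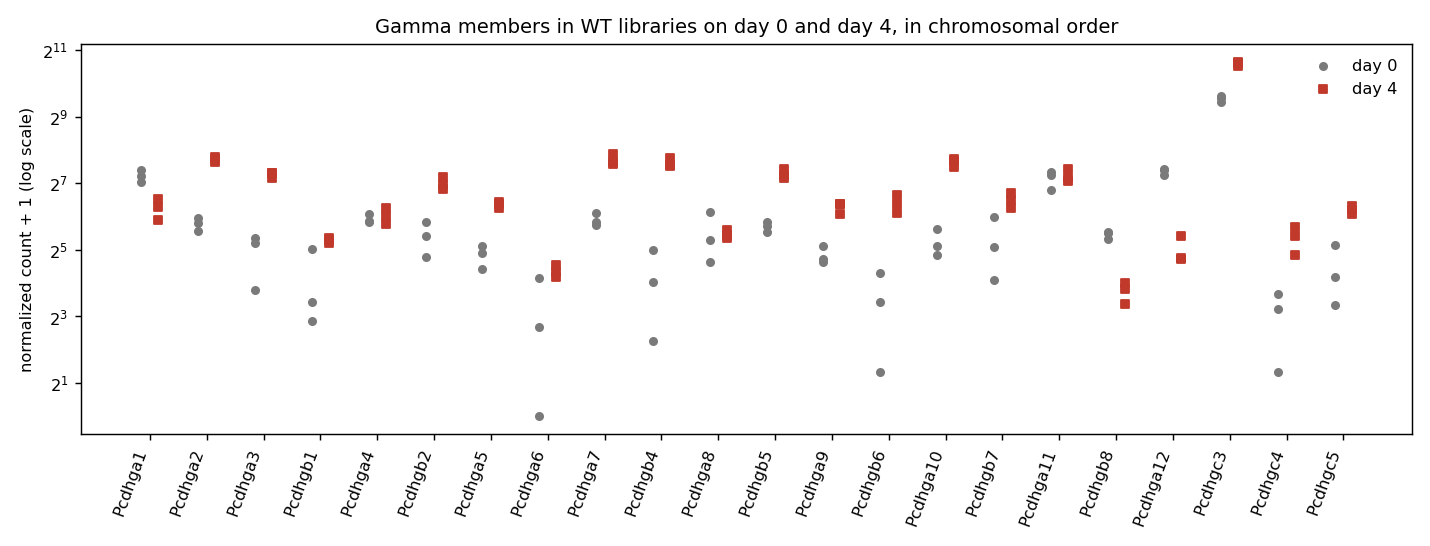
Normalized count + 1 of each gamma member in the WT libraries of day 0 and day 4, on a log2 axis, with the genes in chromosomal order; each point is 1 library. Most genes are higher on day 4, Pcdhgc3 is the highest on both days, and Pcdhga12, Pcdhgb8 and Pcdhga1 are lower on day 4.

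The beta genes were at or near 0 in day 0 WT. Pcdhb22, the last gene of the beta cluster, had 8.42, 4.56 and 0 normalized counts on day 0 and 99.6, 82.2 and 61.3 on day 4. Pcdhb17, Pcdhb20 and Pcdhb21 had no read in any day 0 WT library and reached 8.02 to 13.2, 11.8 to 14.0 and 3.53 to 7.11 normalized counts on day 4. Per kilobase of transcript Pcdhb22 was the highest beta gene on day 4, at 12.3 ± 2.90, and the next, Pcdhb20, was at 3.56 ± 0.337. Pcdhb14 to Pcdhb22, the 3′ part of the cluster, held 88.5% ± 1.39 of the beta sum on day 4, and Pcdhb22 alone held 45.8% ± 1.64. In the alpha cluster Pcdha10 had no read in the day 0 WT libraries and 8.13, 4.01 and 10.6 normalized counts on day 4.

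In these bulk samples fewer cells that express a gene and less RNA per cell cannot be told apart. Between day 0 and day 4 in WT, 43% of all genes tested rose and 39.9% fell. The summed level of 15 neural progenitor and neuron markers was lower in day 4 WT (4123 to 4641 normalized counts) than in day 0 WT (6502 to 6822), and of the 13 tested 4 rose and 7 fell. The sum of 8 fibroblast and mesenchyme markers went from 763 to 855 up to 8934 to 9428, with Postn and Dcn at 0 in day 0 WT and 7 of 8 markers risen. The 10 pluripotency markers all fell, from a mean sum of 145940 to 6389. The mean sum of 10 endoderm markers went from 5820 to 24067, that of 10 mesoderm and muscle markers from 147 to 13847, and that of 6 trophectoderm markers from 2320 to 36819. Day 4 WT cells therefore expressed lineage markers of several kinds, and the part of these changes in the protocadherin values was not tested.

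On day 4 the mutants were compared with WT, the same 3 WT libraries serving all 3 comparisons. The gamma A genes went opposite ways in different mutants: their sum was higher in Mll1-KO and lower in Mll2-KO and double-KO. Their sum was 1367, 1259 and 1288 normalized counts in WT, 1678, 1706 and 1784 in Mll1-KO, 825, 810.2 and 827 in Mll2-KO, and 729.8, 788 and 786 in double-KO. No library of a mutant overlapped WT. The ratio of means was 1.32 in Mll1-KO, and the sum was 1.59-fold lower in Mll2-KO and 1.70-fold lower in double-KO. Over the whole gamma cluster the difference was small: the sum was 1.24-fold higher in Mll1-KO, 1.22-fold higher in double-KO, and overlapped WT in Mll2-KO.

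**Figure D3:**
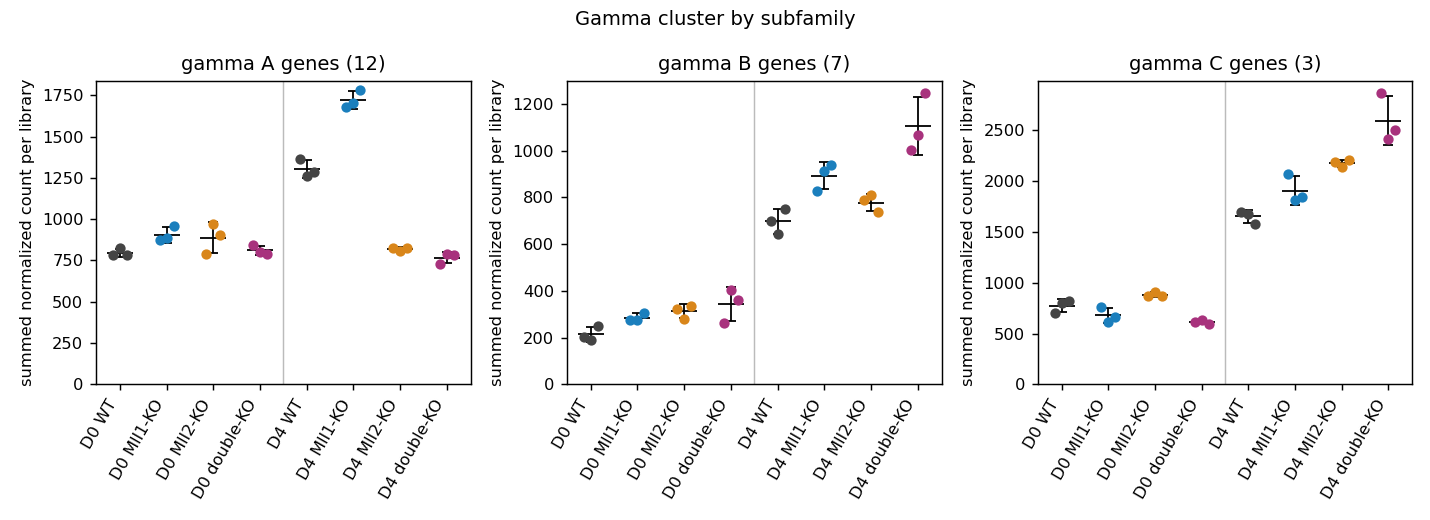
Summed normalized counts of the gamma A, gamma B and gamma C genes in each library, by group; points are libraries and bars are the mean ± SD of 3 libraries. On day 4 the gamma A sum falls from 1304 ± 55.8 in WT to 821 ± 9.25 in Mll2-KO and 768 ± 33.0 in double-KO, whereas the gamma C sum rises from 1655 ± 62.8 to 2178 ± 33.3 and 2596 ± 243.

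Among all 14303 genes tested on day 4, 35.8% were called in Mll1-KO (16.5% higher and 19.2% lower), 45.7% in Mll2-KO (25.4% higher and 20.3% lower) and 50.9% in double-KO (27.6% higher and 23.3% lower). Of the 32 members tested, 13 were called in Mll1-KO (12 rose and 1 fell), 17 in Mll2-KO (6 rose and 11 fell) and 24 in double-KO (13 rose and 11 fell). The share of members called in either direction was close to that of all genes in Mll1-KO, a little above it in Mll2-KO and above it in double-KO. Among the 22 gamma genes 9, 12 and 16 were called. The members' median log2 difference was 0.43, -0.13 and 0.31, against -0.0024, 0.040 and 0.026 over all genes. With day 0 libraries added to the fit the members called were 4 in Mll1-KO, 10 in Mll2-KO and 17 in double-KO. Over all 14303 genes that fit called 3979, 5435 and 6236. The share of members called was then below that of all genes in Mll1-KO and Mll2-KO and above it in double-KO. With a minimum of 50 normalized counts, 15 of the 19 members still tested were called in double-KO, against 6390 of all 12108 genes.

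Of the 12 gamma A genes, 8 fell and none rose in Mll2-KO, and 9 fell and 1 rose in double-KO. Pcdhga11 had the largest fall of the type. It had 173, 133 and 143 normalized counts in WT, 36.3, 36.7 and 48.0 in Mll2-KO, and 39.2, 32.2 and 42.2 in double-KO. All 6 libraries of these mutants lay well below the lowest WT library. The gene fell by 1.87 on the log2 scale in Mll2-KO (SE 0.173, adjusted p = 3.01e-09) and by 1.95 in double-KO (SE 0.173, adjusted p = 8.53e-10). In Mll1-KO it had 128, 165.5 and 185, which overlapped WT (log2 0.08, adjusted p = 0.745).

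Pcdhga1 had 77.2, 58.1 and 90.7 normalized counts in WT, 20.6, 23.4 and 32.7 in Mll2-KO, and 36.9, 39.9 and 54.7 in double-KO. It fell by 1.53 in Mll2-KO (SE 0.214, adjusted p = 2.22e-06) and by 0.77 in double-KO (SE 0.214, adjusted p = 0.00419), and was higher in double-KO than in Mll2-KO (log2 0.76, adjusted p = 0.00598). Its first exon is the first of the gamma cluster, at the end away from the C-type exons.

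Pcdhga3 had 158.5, 142 and 158 normalized counts in WT and 97.0, 89.7 and 76.4 in Mll2-KO. In double-KO it had 77.2, 62.9 and 78.7, and in Mll1-KO 224, 189 and 212. The Mll1-KO libraries all lay above WT and the others all below it. It fell by 0.80 in Mll2-KO (adjusted p = 2.09e-05) and by 1.06 in double-KO (adjusted p = 2.44e-07), and rose by 0.44 in Mll1-KO (adjusted p = 0.0108). That rise did not pass without WT replicate 2 (0.0551), without Mll1-KO replicate 1 (0.0519) or with all 24 libraries in the fit (0.283).

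Pcdhga7 had 232, 188 and 198 normalized counts in WT, 128, 129 and 160.4 in Mll2-KO, and 86.2, 101 and 74.1 in double-KO. It fell by 1.24 in double-KO (adjusted p = 2.78e-08) and by 0.56 in Mll2-KO (adjusted p = 0.0013), and it was the gamma A gene called lower in the direct comparison of these mutants (log2 -0.67, SE 0.134, adjusted p = 0.000237). Pcdhga10 had 179.9, 212 and 200.3 in WT, 119.6, 94.8 and 148 in Mll2-KO and 104, 113 and 119 in double-KO. It fell by 0.72 and 0.81 (adjusted p = 5.2e-05 and 8.9e-06). Pcdhga5 fell by 0.91 and 0.79, Pcdhga2 by 0.41 and 0.62, and Pcdhga4 by 0.70 and 0.61 in the same order.

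Leaving out single libraries did not end the day 4 calls of Pcdhga1, Pcdhga2, Pcdhga3, Pcdhga5, Pcdhga7, Pcdhga10 and Pcdhga11 in Mll2-KO or in double-KO. The call of Pcdhga4 was lost without Mll2-KO replicate 3 (adjusted p = 0.057) and, in double-KO, without WT replicate 1 (0.0836) or double-KO replicate 3 (0.0833). In the fit over all 24 libraries Pcdhga2 was not called in Mll2-KO (0.0611). Pcdhga6, a low gene with 17.3, 19.0 and 22.4 normalized counts in WT and 10.1, 3.07 and 7.98 in double-KO, was not called in that fit either (0.0807).

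The other gamma A genes were not called lower in these mutants. Pcdhga9 and Pcdhga8 did not pass the test in Mll2-KO or double-KO, although Pcdhga8 had 39.2, 38.7 and 25.1 normalized counts in Mll2-KO, each below the 47.8, 40.1 and 42.4 of WT (log2 -0.35, adjusted p = 0.215). Pcdhga12, the last gamma A gene and the one that fell most from day 0 to day 4 in WT, had 25.4, 42.1 and 25.9 normalized counts in WT and 42.5, 62.9 and 54.7 in double-KO. Its rise there (log2 0.78, SE 0.253, adjusted p = 0.0126) did not pass without WT replicate 1 (0.0557), WT replicate 3 (0.0558) or double-KO replicate 2 (0.0638).

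In Mll1-KO 6 of the 12 gamma A genes rose and none fell. Pcdhga9 had 81.3, 66.2 and 81.3 normalized counts in WT and 139, 169.9 and 116 in Mll1-KO, without overlap. Its rise of 0.88 (SE 0.164, adjusted p = 0.00015) was kept in every alternative that was run. Pcdhga10 had 277, 290.2 and 289 in Mll1-KO and rose by 0.53 (SE 0.128, adjusted p = 0.00182), which was not called in the fit over all 24 libraries (0.061). In all, 4 members rose in Mll1-KO and fell in Mll2-KO: Pcdhga3, Pcdhga5, Pcdhga7 and Pcdhga10. The matching count over all genes was not made. The comparison of double-KO with Mll1-KO, which does not use the WT libraries, had 54.8% of all genes called (31.1% higher and 23.7% lower), and 10 of the 12 gamma A genes were lower in double-KO and none was higher. The largest of these differences were those of Pcdhga11 (log2 -2.04, adjusted p = 3.59e-10), Pcdhga6 (-2.04, adjusted p = 6.92e-05) and Pcdhga7 (-1.66, adjusted p = 1.51e-10).

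**Figure D4:**
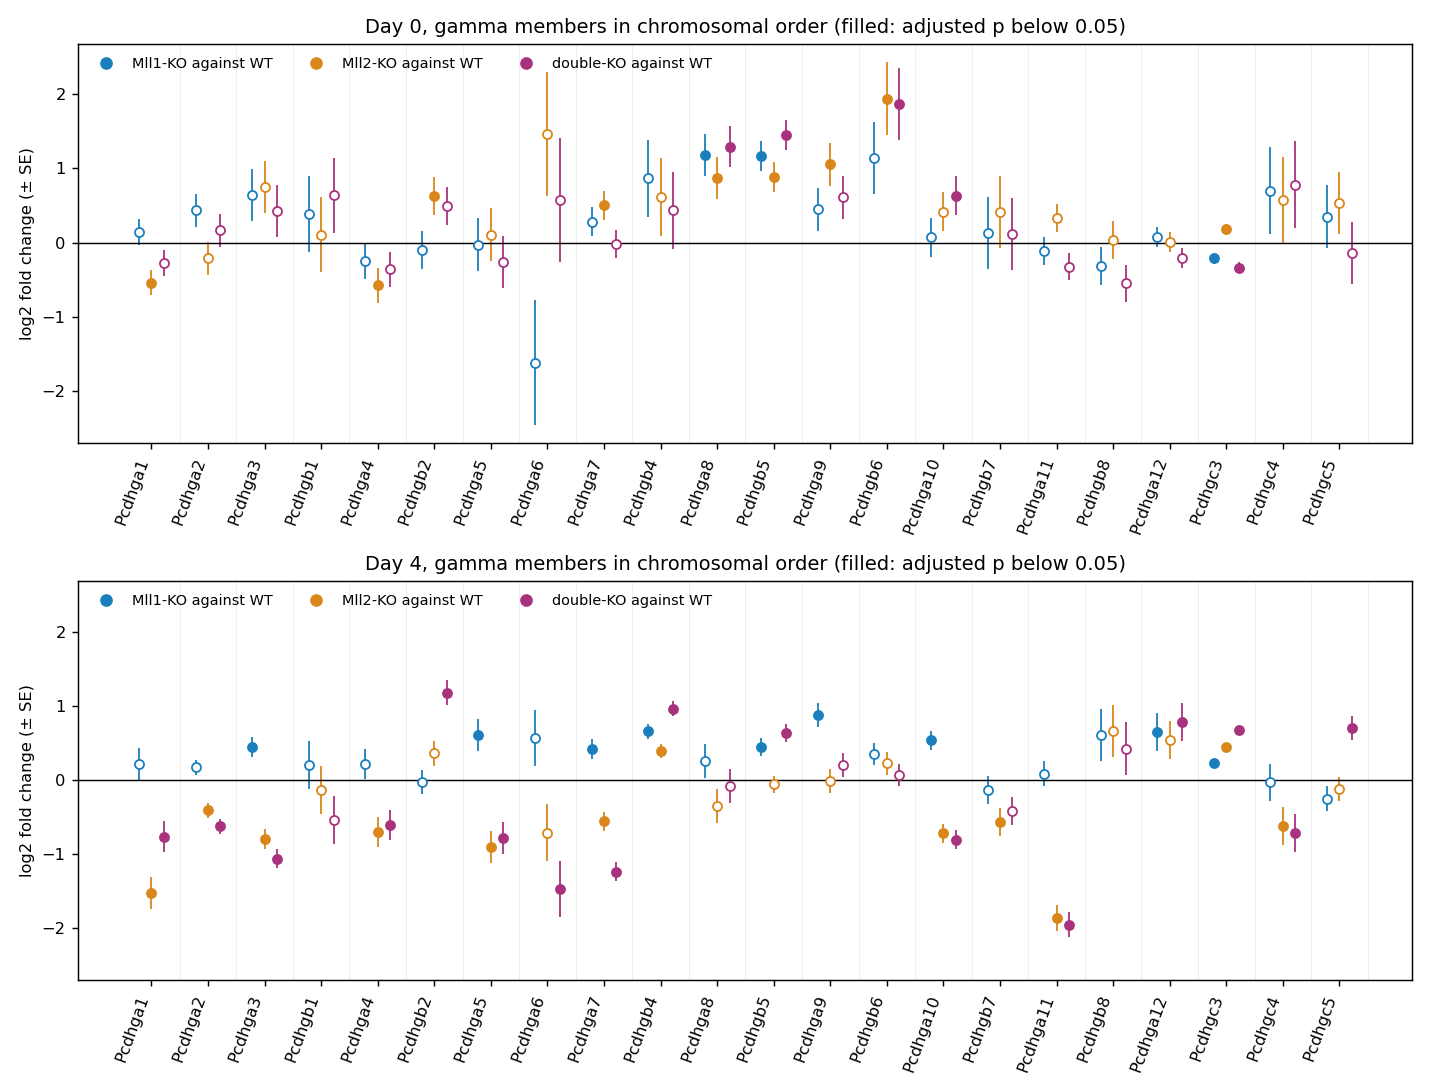
Log2 fold change ± SE of each gamma member against WT in Mll1-KO, Mll2-KO and double-KO, on day 0 (top) and day 4 (bottom), with genes in chromosomal order; filled points have an adjusted p below 0.05. On day 4 most gamma A points lie above 0 in Mll1-KO and below 0 in Mll2-KO and double-KO, with Pcdhga11 lowest at -1.87 and -1.95, while Pcdhgc3 lies above 0 in all 3 mutants.

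The gamma B genes have first exons that sit between those of type A. Their sum was 697 ± 52.9 normalized counts in WT, 892 ± 58.0 in Mll1-KO, 778 ± 38.0 in Mll2-KO and 1105 ± 125 in double-KO (SD, n = 3), and Mll2-KO overlapped WT. Of 7 genes, 2 rose in Mll1-KO, 1 rose and 1 fell in Mll2-KO, and 3 rose in double-KO. Pcdhgb4 had 181, 186 and 213 normalized counts in WT, 290, 303 and 321 in Mll1-KO, 283, 253 and 227 in Mll2-KO, and 335, 383 and 417 in double-KO. All mutant libraries lay above all WT libraries. It rose by 0.65, 0.39 and 0.96 (SE 0.099 each; adjusted p = 1.01e-05, 0.00224 and 1.14e-08). In the fit over all 24 libraries, which brings in its low day 0 values, these calls were lost (adjusted p = 0.252, 0.483 and 0.059).

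Pcdhgb2 had 123, 111 and 145 normalized counts in WT and 279, 242 and 342 in double-KO. It rose by 1.17 there (SE 0.167, adjusted p = 2.08e-06), was also higher than in Mll2-KO (log2 0.82, adjusted p = 0.00032), and overlapped WT in both single mutants. Pcdhgb5 rose by 0.63 in double-KO (adjusted p = 7.31e-05), from 169.7, 151 and 140.2 to 220.5, 259 and 237. Pcdhgb7 fell by 0.57 in Mll2-KO (adjusted p = 0.0166), and did not pass without WT replicate 3 (0.0859), without Mll2-KO replicate 1 (0.107) or with all 24 libraries in the fit (0.316).

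Pcdhgc3 rose in all 3 mutants. It had 1602, 1564 and 1463 normalized counts in WT, 1961, 1707 and 1757 in Mll1-KO, 2094, 2052 and 2114 in Mll2-KO, and 2734, 2270 and 2360 in double-KO. No mutant library overlapped WT, and the double-KO libraries lay above those of both single mutants. The rise was 0.23, 0.44 and 0.67 in Mll1-KO, Mll2-KO and the double-KO, each with an SE of 0.059 (adjusted p = 0.00384, 1.4e-06 and 8.93e-10). All 3 calls were kept in every alternative run. Double-KO was higher than Mll2-KO by 0.23 (adjusted p = 0.003) and higher than Mll1-KO by 0.44 (adjusted p = 8.61e-07).

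With gamma A lower and Pcdhgc3 higher, the make-up of the gamma sum differed between genotypes. Pcdhgc3 held 42.2% ± 1.64 of it in WT, 40.0% ± 2.51 in Mll1-KO, 55.3% ± 0.771 in Mll2-KO and 54.9% ± 3.95 in double-KO. The gamma A share was 35.7% ± 0.587, 38.1% ± 1.25, 21.7% ± 0.201 and 17.2% ± 1.31 in the same order. These shares, like the sums of type A, B and C genes, depend on how reads of constant exons were shared out. Without Pcdhgc3 the gamma sum was lower in Mll2-KO than in WT (log2 ratio -0.32, against 0.05 with it) and no longer higher in double-KO (-0.069, against 0.29). The gamma sum therefore joins members that rose with members that fell.

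The other gamma C genes were low. Pcdhgc5 had 72.1, 66.2 and 78.9 normalized counts in WT and 114, 123 and 117 in double-KO, and rose by 0.70 (SE 0.165, adjusted p = 0.000961), which was not called in the fit over all 24 libraries (0.096). It overlapped WT in both single mutants. Pcdhgc4, an isoform known from the survival of inhibitory interneurons, had 27.4, 50.1 and 41.2 in WT, 45.0, 30.9 and 37.9 in Mll1-KO, 20.6, 25.5 and 28.4 in Mll2-KO, and 23.5, 19.9 and 26.2 in double-KO. Its falls of 0.62 in Mll2-KO (adjusted p = 0.0487) and 0.71 in double-KO (adjusted p = 0.0226) rested on single libraries: without WT replicate 2 the adjusted p was 0.233 and 0.139, and without WT replicate 3 it was 0.123 and 0.0693. The calls also missed the threshold without Mll2-KO replicate 1 (0.169), Mll2-KO replicate 2 (0.0792) or double-KO replicate 2 (0.0793). The fit over all 24 libraries gave 0.303 and 0.22.

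The beta cluster was higher in every mutant on day 4, and highest in double-KO. Its sum was 209, 185 and 134 normalized counts in WT, 301, 280.3 and 299 in Mll1-KO, 298, 269 and 307 in Mll2-KO, and 419, 397 and 463 in double-KO. The single mutants lay above WT and below double-KO in every library. The ratio of means to WT was 1.66 in Mll1-KO, 1.65 in Mll2-KO and 2.42 in double-KO. Of the 8 beta genes tested, 3, 4 and 7 rose and none fell, with a median log2 difference of 0.70, 0.79 and 1.35. Of these 8, Pcdhb20 and Pcdhb22 reached the minimum in the 3 WT libraries alone. The others met it with the help of mutant libraries, and Pcdhb21, counted as a rise in each mutant, had 7.11, 7.02 and 3.53 normalized counts in WT. The counts of rises and the medians therefore follow in part from the minimum and are descriptions.

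Pcdhb22 gave the largest part of these sums, 45.8% in WT, 44.3% in Mll1-KO, 52.5% in Mll2-KO and 52.3% in double-KO. It had 99.6, 82.2 and 61.3 normalized counts in WT, 125, 131 and 133 in Mll1-KO, 164, 131 and 165 in Mll2-KO, and 218, 212 and 238 in double-KO. The double-KO libraries lay above all others. It rose by 0.70, 0.93 and 1.47 against WT, with an SE of 0.142 each (adjusted p = 0.000362, 7.63e-06 and 3.72e-09), and was 0.54 higher in double-KO than in Mll2-KO (adjusted p = 0.00348). In the fit over all 24 libraries, which brings in day 0 values at or near 0, the 3 calls against WT were lost (0.447, 0.258 and 0.0603), whereas leaving out single libraries ended none of them.

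**Figure D5:**
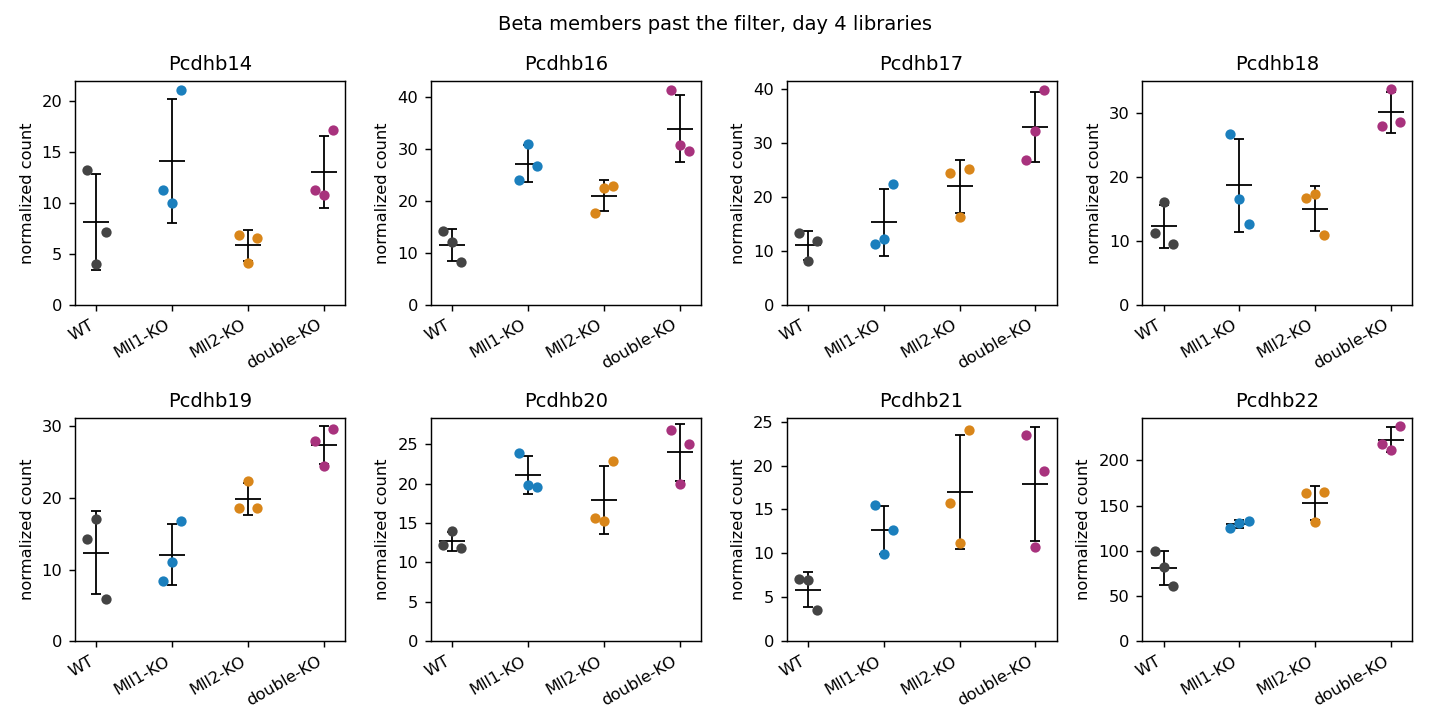
Normalized counts on day 4 of the 8 beta genes that reached the minimum, by genotype; points are libraries and bars are the mean ± SD of 3 libraries. Pcdhb22 is the highest in every genotype and rises from 81.0 ± 19.2 in WT to 223 ± 14.0 in double-KO. In double-KO 7 of the 8 genes passed the test, a count that follows in part from the minimum.

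The other beta genes tested were at 3.53 to 41.4 normalized counts on day 4. Pcdhb16 had 14.2, 12.0 and 8.25 in WT, 23.9, 30.9 and 26.6 in Mll1-KO, 17.6, 22.4 and 22.9 in Mll2-KO, and 41.4, 30.7 and 29.7 in double-KO, and no mutant library overlapped WT. It rose by 1.19 in Mll1-KO (SE 0.280, adjusted p = 0.00154) and by 1.496 in double-KO (SE 0.280, adjusted p = 8.24e-05), calls that were kept in every alternative that tested the gene. Its rise of 0.84 in Mll2-KO (adjusted p = 0.0169) was lost without WT replicate 3 (0.0897), Mll2-KO replicate 2 (0.0526) or Mll2-KO replicate 3 (0.0569), in DESeq2 (0.084) and in the fit over all 24 libraries (0.0846). Pcdhb17 had 13.2, 8.02 and 11.8 in WT and 26.9, 32.2 and 39.9 in double-KO, a rise of 1.51 (SE 0.324, adjusted p = 0.000376). Pcdhb18 had 11.2, 16.0 and 9.43 in WT and 28.0, 33.7 and 28.5 in double-KO, a rise of 1.26 (SE 0.326, adjusted p = 0.00226). Pcdhb16, Pcdhb17 and Pcdhb18 met the minimum only with the help of mutant libraries, so their calls follow in part from that choice. Pcdhb14 was the beta gene tested that did not pass in any mutant.

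The alpha cluster was the lowest, and its values rest on a handful of reads. Its sum on day 4 was 31.5, 28.1 and 27.1 normalized counts in WT, 56.3, 37.5 and 53.3 in Mll1-KO, 20.6, 13.2 and 10.9 in Mll2-KO, and 16.8, 24.5 and 16.0 in double-KO. Mll1-KO lay above WT and the other mutants below it, without overlap. Pcdha10 had 8.13, 4.01 and 10.6 in WT, 11.3, 11.0 and 19.6 in Mll1-KO, 4.90, 0 and 0 in Mll2-KO, and 2.24, 3.07 and 0 in double-KO. Its fall passed the test in Mll2-KO (log2 -2.16, adjusted p = 0.0152) and in double-KO (-1.78, adjusted p = 0.0399). Pcdha10 met the minimum through WT replicate 3 and the Mll1-KO libraries, so its day 4 calls follow in part from that choice. These calls were lost without WT replicate 3 (0.0672 and 0.138) and, in double-KO, without WT replicate 1 (0.0958), and they were also lost without Mll2-KO replicate 2 (0.0711), Mll2-KO replicate 3 (0.0715) or double-KO replicate 3 (0.2).

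Pcdhac2, the last alpha gene, known from the spacing of serotonergic axons, fell in Mll1-KO although the sum was higher there. It had 9.15, 12.0 and 4.71 normalized counts in WT, 0, 0 and 5.61 in Mll1-KO, 9.80, 8.15 and 0 in Mll2-KO, and 6.72, 15.3 and 16.0 in double-KO. It met the minimum through WT replicate 2 and double-KO replicates 2 and 3, so its day 4 calls follow in part from that choice. Its fall in Mll1-KO (log2 -2.28, adjusted p = 0.0261) overlapped WT and was lost without WT replicate 1 (0.0647), WT replicate 2 (0.104), Mll1-KO replicate 1 (0.103) or Mll1-KO replicate 2 (0.108), in DESeq2 (0.162) and in the fit over all 24 libraries (0.0542). Without Pcdhac2 the log2 ratio of the alpha sum to WT moved from 0.76 to 1.22 in Mll1-KO and from -0.60 to -1.66 in double-KO.

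Set side by side, the calls of Mll2-KO and double-KO against the shared WT libraries had the same sign wherever both passed the test: 10 members fell in both, of 11 in each, 6 rose in both, and 0 had opposite calls. The matching counts over all genes were not made. Both comparisons share the WT libraries, the loss of Mll2 and the drug, so this agreement is not shown to be particular to the members. The direct comparison of double-KO with Mll2-KO, in which 40.3% of all genes were called (19.4% higher and 20.9% lower), gave 8 higher and 1 lower of the 32 members. Higher were Pcdhb18, Pcdhb22, Pcdhga1, Pcdhgb2, Pcdhgb4, Pcdhgb5, Pcdhgc3 and Pcdhgc5, by 0.23 to 0.98 on the log2 scale, and Pcdhga7 was lower. The call of Pcdhb18 was lost without Mll2-KO replicate 3 (adjusted p = 0.0908) or double-KO replicate 2 (0.0643), and those of Pcdhb18, Pcdhb22, Pcdhgb4 and Pcdhgc5 in the fit over all 24 libraries (0.145, 0.556, 0.309 and 0.0635). The comparison of double-KO with Mll1-KO gave 8 higher and 12 lower members, of which 10 were gamma A genes and the others Pcdha10 and Pcdhgc4. The Spearman rho between chromosomal order and log2 difference over the 22 gamma genes was 0.379 in Mll2-KO, 0.321 in double-KO and -0.0604 in Mll1-KO, a description over genes that share libraries and constant exons.

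On day 0 the alpha and beta clusters were near 0 in all genotypes. The alpha sum was 5.89 ± 3.10 normalized counts in WT, 7.88 ± 0.327 in Mll1-KO, 9.37 ± 3.38 in Mll2-KO and 13.6 ± 5.34 in double-KO, and the beta sum was 11.5 ± 4.68, 14.3 ± 3.71, 7.65 ± 5.07 and 11.4 ± 4.95 (SD, n = 3). The gamma sum was 1685, 1819 and 1852 in WT, 1908, 1776 and 1927 in Mll1-KO, 1983, 2168 and 2107 in Mll2-KO, and 1725, 1837 and 1752 in double-KO. Only Mll2-KO lay above WT without overlap, at a log2 ratio of 0.22. No alpha or beta gene met the minimum on day 0. With no minimum 50 members were tested, and in double-KO Pcdhb16 (2.58 to 3.95 against 0 to 0.777 in WT, adjusted p = 0.00116) and Pcdha12 (0 to 8.60 against 0 in each WT library, adjusted p = 0.0153) were called higher and Pcdhb14 (0 against 1.52 to 3.06, adjusted p = 0.0255) lower. Pcdha12 was also called higher in Mll2-KO (adjusted p = 0.0245). These calls rest on a few reads per library.

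Among all 13984 genes tested on day 0, 40% were called in Mll1-KO (21.3% higher and 18.7% lower), 47.2% in Mll2-KO (22.8% and 24.3%) and 53.7% in double-KO (26.6% and 27.1%). Of the 22 gamma genes, 3 were called in Mll1-KO (2 rose and 1 fell), 9 in Mll2-KO (7 rose and 2 fell) and 5 in double-KO (4 rose and 1 fell). The shares of members called were below those of all genes in Mll1-KO and double-KO and near it in Mll2-KO. There 3 of the 9 calls were kept in every alternative that tested the gene. With scaling to library totals the 5 calls in double-KO split into 3 and 2.

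Pcdhgb5, a type B gene from the middle of the cluster, rose in all 3 mutants on day 0. It had 51.3, 56.2 and 45.0 normalized counts in WT, 108, 125 and 113 in Mll1-KO, 114, 76.6 and 96.9 in Mll2-KO, and 95.7, 178 and 162 in double-KO. No mutant library overlapped WT. The rise was 1.17, 0.89 and 1.45 (SE 0.202 each; adjusted p = 0.000102, 0.00123 and 4.78e-06), and it was kept in every alternative run. Pcdhga8, its neighbour on the 5′ side, had 38.3, 69.9 and 24.1 in WT, 77.2, 97.6 and 105 in Mll1-KO, 53.7, 90.3 and 84.7 in Mll2-KO, and 114, 80.8 and 108 in double-KO. It rose by 1.18 in Mll1-KO and by 1.295 in double-KO (adjusted p = 0.00198 and 0.000591). Its rise of 0.87 in Mll2-KO overlapped WT and was lost without WT replicate 3 (0.125) or Mll2-KO replicate 2 (0.0635).

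Pcdhgb6 had 1.53, 9.87 and 18.6 normalized counts in WT, 16.5, 14.6 and 20.2 in Mll1-KO, 26.0, 30.6 and 35.1 in Mll2-KO, and 30.6, 24.4 and 31.8 in double-KO. The Mll2-KO and double-KO libraries all lay above WT, and the Mll1-KO libraries overlapped it. It rose by 1.94 in Mll2-KO (SE 0.491, adjusted p = 0.00285) and by 1.87 in double-KO (SE 0.491, adjusted p = 0.00312). Pcdhga9, the gene before it, rose by 1.06 in Mll2-KO (SE 0.290, adjusted p = 0.00528), from 25.3, 33.4 and 24.1 to 46.5, 71.7 and 58.0. These calls were kept in every alternative run. The gamma B sum, which includes Pcdhgb5 and Pcdhgb6, was above WT without overlap in each mutant, at log2 ratios of 0.41, 0.54 and 0.67. Of the 7 gamma B genes, 1, 3 and 2 were called higher in Mll1-KO, Mll2-KO and double-KO. Over all genes 21.3%, 22.8% and 26.6% were called higher. The sum therefore carries the rise of Pcdhgb5 and is not a rise of every type B gene.

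Pcdhgc3 differed in sign between the mutants on day 0. It had 688, 759.5 and 792 normalized counts in WT, 709, 591 and 633 in Mll1-KO, 849, 864 and 827 in Mll2-KO, and 592, 599 and 577 in double-KO. It fell by 0.34 in double-KO (SE 0.072, adjusted p = 0.000519), a call kept in every alternative run. The fall of 0.21 in Mll1-KO (adjusted p = 0.0227) overlapped WT and was lost without WT replicate 2 (0.0737), WT replicate 3 (0.117), Mll1-KO replicate 2 (0.135) or Mll1-KO replicate 3 (0.0631). The rise of 0.18 in Mll2-KO (adjusted p = 0.0418) was lost without WT replicate 1 (0.212), WT replicate 2 (0.0678), Mll2-KO replicate 1 (0.0793) or Mll2-KO replicate 2 (0.104), and with no minimum on counts (0.0509). In the direct comparison, in which 47.7% of all genes were called (23.4% higher and 24.3% lower), double-KO was lower than Mll2-KO by 0.52 (adjusted p = 5.98e-06), and of the 22 gamma genes 1 rose and 3 fell. Against Mll1-KO, where 41% of all genes were called (18.9% higher and 22% lower), the double-KO had 1 member called, Pcdhga6 (log2 2.19, adjusted p = 0.0415), at 0, 2.93 and 0 normalized counts in Mll1-KO and 8.88, 3.37 and 7.74 in double-KO. At that level the call rests on few reads, and edgeR and a minimum of 50 gave 0 members.

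Whether a mutant's effect differed between days was tested as an interaction over all 24 libraries. Of the 15114 genes, 34% were called for Mll1-KO (15% with a higher and 19% with a lower effect on day 4), 36.3% for Mll2-KO (19.3% and 17%) and 39.4% for double-KO (20.3% and 19.2%), and of the 32 members 4, 11 and 11. For Mll2-KO 10 of the 11 were more negative on day 4 than on day 0, 7 of them gamma A genes, and 7 of the 11 calls were kept in every alternative run. Pcdhga11 changed most among the gamma genes: its Mll2-KO effect was 0.33 on day 0, when it had 152, 110.1 and 160 normalized counts in WT and 199, 171 and 157 in Mll2-KO, and -1.87 on day 4 (interaction -2.20, SE 0.278, adjusted p = 6.92e-07). For double-KO the same gene had an interaction of -1.63 (adjusted p = 3.45e-05), and Pcdhga3 and Pcdhga10 had -1.49 and -1.44. Pcdhgc3 went the other way in double-KO, from a fall of 0.34 on day 0 to a rise of 0.67 on day 4 (interaction 1.00, SE 0.097, adjusted p = 4.03e-09).

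Genes of related function and position were read from lists chosen with earlier results of these data known. Over all genes tested on day 4, 16.5% were called higher and 19.2% lower in Mll1-KO. These shares were 25.4% and 20.3% in Mll2-KO, and 27.6% and 23.3% in double-KO. Of 28 known or candidate regulators of the clusters that were tested on day 4, among them CTCF, cohesin subunits and silencing factors, 3 rose and 7 fell in Mll1-KO, 7 rose and 4 fell in Mll2-KO, and 3 rose and 4 fell in double-KO. Ctcf itself did not pass the test in any mutant on day 4 (log2 -0.11, 0.030 and -0.079). Dnmt3a, a de novo DNA methyltransferase, had a mean of 2910 normalized counts in WT, 3160 in Mll1-KO, 1749 in Mll2-KO and 1549 in double-KO on day 4, and fell by 0.73 and 0.91 in Mll2-KO and double-KO (adjusted p = 4.85e-13 and 4.24e-15). Dnmt3b, its paralogue, fell by 0.70 in Mll1-KO and by 0.21 in double-KO and rose by 0.38 in Mll2-KO. Smchd1, a chromatin protein that represses clustered protocadherins, fell by 0.29 in Mll2-KO (adjusted p = 3.31e-05) and by 0.16 in double-KO (adjusted p = 0.00869). Their part in the protocadherin values was not tested.

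Genes on either side of the clusters went both ways. The share of all genes called on day 4 was 35.8% in Mll1-KO, 45.7% in Mll2-KO and 50.9% in double-KO. Of 33 neighbours on chromosome 18 tested on day 4, 6 rose and 8 fell in Mll1-KO, 6 rose and 4 fell in Mll2-KO, and 7 rose and 6 fell in double-KO, with medians of -0.064, 0.035 and -0.022. Taf7, a subunit of general transcription factor TFIID that lies between the beta and gamma clusters, was named for its position after its values were seen. Its mean was 2203 in WT and 1583 in Mll1-KO, a fall of 0.48 (adjusted p = 4.03e-09), and it did not pass the test in Mll2-KO or double-KO (log2 -0.00098 and -0.099). Diaph1, an actin regulator 3′ of the gamma cluster, named on the same ground, fell by 0.17 in Mll1-KO (adjusted p = 0.0112) and did not pass the test in the others (log2 0.12 and 0.06).

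Protocadherins outside the clusters rose more often than they fell in Mll1-KO and went both ways in the other mutants. Of 16 tested on day 4, 10 rose and 0 fell in Mll1-KO, 5 rose and 6 fell in Mll2-KO, and 5 rose and 5 fell in double-KO. Of the 14 classical cadherins and catenins, 5 rose and 3 fell, 4 rose and 3 fell, and 7 rose and 2 fell. Of 16 partners downstream of clustered protocadherins, 3 rose and 4 fell, 2 rose and 2 fell, and 6 rose and 2 fell. Over all genes 35.8%, 45.7% and 50.9% were called in Mll1-KO, Mll2-KO and double-KO. From day 0 to day 4 in WT, 12 of 17 non-clustered protocadherins tested rose and 4 fell. Of 14 cadherins and catenins, 12 rose and 1 fell between these days, and over all genes 43% rose and 39.9% fell.

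Markers of cell types also moved with genotype on day 4, when 35.8%, 45.7% and 50.9% of all genes were called in Mll1-KO, Mll2-KO and double-KO. The summed level of 15 neural markers was 4123 to 4641 normalized counts in WT, 5276 to 5990 in Mll1-KO, 3833 to 4609 in Mll2-KO and 6652 to 7208 in double-KO, and of the 12 tested 5 rose and 3 fell, 4 rose and 3 fell, and 6 rose and 3 fell. Snap25 was at 0 in Mll2-KO. The 8 fibroblast and mesenchyme markers, none of them at 0, summed to a mean of 9110 in WT, 10505 in Mll1-KO, 11470 in Mll2-KO and 17439 in double-KO. The 10 endoderm markers summed to 24067, 11511, 30574 and 16577, and the 10 pluripotency markers to 6389, 3239, 9049 and 4770. The 10 mesoderm and muscle markers summed to 13847, 13425, 17374 and 31570, with Mesp1 at 0 in Mll1-KO, and the 6 trophectoderm markers to 36819, 28388, 31397 and 33621. On day 0 the endoderm sum was 5820 in WT, 590.2 in Mll1-KO, 4774 in Mll2-KO and 641 in double-KO. The part of these differences in the protocadherin values was not tested.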

How the data were processed

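The authors deposited 1 table of normalized counts for 19953 genes and 24 libraries, recorded here as signal: the deposited signal is the read count of a gene divided by 1 size factor per library. The submitters' processing notes name the mm10 build, STAR (2.7.10a), RSEM (1.3.1), DESeq2 (1.34.0), Trim Galore (3.4), SAMtools (1.13) and FastQC. The annotation, and how RSEM shared reads between transcripts, were not given in the sources used here. Undoing that division returned whole numbers for 100% of values (tolerance 1e-06), and these reads, which may be rounded estimates, were used for count tests only. Columns taken as day 0 WT bear an extra letter in their names, which no source explains. No column was left without a sample (0 columns).

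Values were tested as log2(value + 1) with limma (3.58.1, R 4.3.3, trend on), a pseudocount of 1 that understates changes of low genes. A gene entered a fit when 3 or more of its libraries reached 10, and fits held the libraries of 1 day, or all 24 across days. P-values were adjusted by Benjamini and Hochberg over all genes, with a threshold of 0.05. Cluster sums are descriptions without a test. Positions came from GENCODE M21. Alternatives were pseudocounts of 0.5 and 5, no minimum, a minimum of 50, scaling to library totals, a replicate block, a fit over all 24 libraries, DESeq2 1.42.0, the quasi-likelihood test of edgeR 4.0.16 (TMM), cluster sums without their C-type member, and leaving out each library. As a count test on the recovered reads, edgeR called 5316, 6406 and 7196 genes in the day 4 Mll1-KO, Mll2-KO and double-KO comparisons with WT, and limma 5120, 6537 and 7277.

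The members and gene lists were chosen with earlier results of these data known. Members were named by rule: the 8 largest rises and falls among called members whose groups do not overlap, and the C-type genes. The rule also took the 3 members of each cluster with the highest mean over all 24 libraries. Kmt2a and Kmt2b, and up to 2 rises and 2 falls of a list, were named as well. For interactions the overlap condition could not apply. The 5 genes most alike were taken among genes with a mean of at least 50. Members beyond this rule are given where a count is broken down or levels per kilobase are compared. The fits were tested on simulated data.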

Additional observations from a re-analysis of the deposited data

Results flagged for a closer look

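The effect of a mutation differed between day 0 and day 4 for 26 combinations of member and mutant, by an interaction term in limma's fit over all 24 libraries (adjusted p below 0.05). Of the 32 members tested, 4 were called for Mll1-KO, 11 for Mll2-KO and 11 for double-KO. Over all 15114 genes 34%, 36.3% and 39.4% were called. The share of members was thus below that of all genes for Mll1-KO, and near or a little below it for the others. Values are the day 4 effect minus the day 0 effect on the log2 scale.

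For Mll1-KO the difference was 1.47 for Pcdhb16, 0.44 for Pcdhgc3, -0.73 for Pcdhgb5 and -3.34 for Pcdhac2. Of these 4 calls that of Pcdhgc3 was kept in every alternative run. Pcdhgb5 was not called with scaling to library totals (adjusted p = 0.0636) or without day 0 WT replicate 3 (0.0712), day 0 Mll1-KO replicate 2 (0.0625), day 4 WT replicate 1 (0.0678) or day 4 Mll1-KO replicate 2 (0.0815). Pcdhb16 and Pcdhac2 had values near 0 in several groups and met the minimum only through day 4 libraries. Pcdhb16 was not called by edgeR (0.261), by DESeq2 (0.432) or at a pseudocount of 0.5 (0.0627), and lost its call without any 1 of 8 single libraries (0.0528 to 0.11). Pcdhac2 was not called with no minimum (0.0543) or at a pseudocount of 0.5 (0.0504), and lost its call without any 1 of 8 single libraries (0.0582 to 0.124).

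For Mll2-KO it was 0.25 for Pcdhgc3, -0.95 for Pcdhgb5, -0.99 for Pcdhga1, -1.07 for Pcdhga7, -1.08 for Pcdhga9, -1.14 for Pcdhga10, -1.23 for Pcdhga8, -1.55 for Pcdhga3, -1.72 for Pcdhgb6, -2.20 for Pcdhga11 and -2.63 for Pcdha10. Of these 11 calls 7 were kept in every alternative run. Pcdhga8 was not called without day 0 WT replicate 3 (adjusted p = 0.0795), day 0 Mll2-KO replicate 2 (0.0505) or day 4 Mll2-KO replicate 3 (0.0634), and Pcdhga9 was not called without day 0 Mll2-KO replicate 2 (0.0584). Pcdhgc3 was not called with scaling to library totals (0.206), by edgeR (0.065) or with no minimum (0.0586), and lost its call without any 1 of 9 single libraries (0.0532 to 0.115). Pcdha10 was not called by edgeR (0.136) or DESeq2 (0.223), and lost its call without any 1 of 5 single libraries (0.0511 to 0.0796). It met the minimum only through WT and Mll1-KO libraries of day 4.

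For double-KO it was 2.29 for Pcdhb14, 1.00 for Pcdhgc3, 0.99 for Pcdhga12, -0.79 for Pcdhga2, -0.82 for Pcdhgb5, -1.22 for Pcdhga7, -1.38 for Pcdhga8, -1.44 for Pcdhga10, -1.49 for Pcdhga3, -1.63 for Pcdhga11 and -1.81 for Pcdhgb6. Pcdhb14 had no read in the day 0 double-KO libraries, and its call was lost without day 4 WT replicate 2 (adjusted p = 0.0553). It met the minimum only through day 4 libraries. The other 10 calls were kept in every alternative run.

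Pcdhgb5 and Pcdhga8 had called rises in Mll2-KO and double-KO on day 0, and Pcdhga3, Pcdhga7, Pcdhga10 and Pcdhga11 had called falls in both on day 4.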

How the results depend on the processing

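Of 29 members called between days in WT, 24 held in every alternative that tested them. Against WT on day 4, 3 of 13 held in Mll1-KO, 7 of 17 in Mll2-KO and 14 of 24 in double-KO. A minimum of 50 left 19 of the 32 members to test in these comparisons. A member it removed was judged on the other alternatives. Without Pcdhgc3 the log2 ratio of gamma sums was 0.24 and 0.19 in day 0 Mll1-KO and double-KO, 0.36, -0.32 and -0.069 in day 4 Mll1-KO, Mll2-KO and double-KO, and for double-KO -0.068 against day 0 Mll2-KO and -0.43 against day 4 Mll1-KO. Without Pcdhac2 the alpha ratio was -0.35 in day 0 Mll1-KO, 1.296 for day 0 double-KO against Mll1-KO, 1.22 and -1.66 in day 4 Mll1-KO and double-KO, and for day 4 double-KO -2.88 against Mll1-KO and -0.48 against Mll2-KO. Scaled to library totals, the gamma ratio was -0.30 for day 0 double-KO against Mll2-KO, 0.35, -0.043 and 0.23 in day 4 Mll1-KO, Mll2-KO and double-KO, -0.12 for day 4 double-KO against Mll1-KO (beta 0.43) and 1.16 between days. That scaling moved the higher share of calls over all genes on day 4 from 46.2% to 60.3% in Mll1-KO, 55.6% to 34.5% in Mll2-KO and 54.2% to 41.4% in double-KO, and on day 0 from 53.2% to 38.9% in Mll1-KO. Pcdhgc4 in day 4 Mll1-KO turned from -0.036 to 0.0103.

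With all 24 libraries in the fit, the members called were 5 in day 0 Mll1-KO, 4 in day 4 Mll1-KO, 10 in day 4 Mll2-KO, and for double-KO 3 against day 0 Mll1-KO and 5 against day 4 Mll2-KO. In the same order 5986, 3979, 5435, 6134 and 4674 genes were called, of 13984 tested on day 0 and 14303 on day 4. A minimum of 50 left 13 members to test on day 0 and 19 on day 4 and across days. It gave 3 in day 0 double-KO, 15 in day 4 double-KO, 16 between days and 2 for the Mll1-KO interaction. Over all genes it called 6629 of 11635, 6390 of 12108, 11083 of 12802 and 5121 of 12802 in the same order. The Mll1-KO interaction also had 2 members at a pseudocount of 0.5. For day 0 double-KO against Mll1-KO, no minimum gave 5 members, DESeq2 1, and edgeR, a pseudocount of 5 and a minimum of 50 gave 0, with 4, 5 and 4 at an unadjusted p under 0.05. Leaving out single libraries gave 4 to 8 members in day 0 Mll2-KO, 1 to 2 and 2 to 6 in day 0 double-KO against Mll1-KO and Mll2-KO, 8 (without day 4 WT replicate 2) to 11 in day 4 Mll1-KO, and 1 to 5 for the Mll1-KO interaction. It turned the sign of Pcdhgc4 (-0.0029 to 1.16 in day 0 Mll1-KO, -0.13 to 1.03 in day 0 Mll2-KO, -0.27 to 0.15 in day 4 Mll1-KO), Pcdhgc5 (-0.085 to 0.81 in day 0 Mll1-KO, -0.57 to 0.32 in day 0 double-KO) and Pcdhac2 (-1.59 to 0.13 in day 4 Mll2-KO), none of which was called. Apart from what each alternative removes by construction, the cause was not tested.

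Replicate numbers did not pair the libraries: over 84 same-numbered pairs of different groups the median r of residuals was 0.0030 and the highest 0.077. With the replicate block 4 members were called in day 0 Mll1-KO (3 without it), 16 in day 4 Mll2-KO (17) and 21 for day 4 double-KO against Mll1-KO (20). With 2 to 406 reads per library in the beta cluster and 4 to 40 in the alpha cluster, differences between single genes there that were not called are not shown to be absent.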

Other observations

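The genes whose 8 group means were most like the beta sum, among 11785 genes with a mean of at least 50, were Rhob (Pearson r 0.9987), Arf3 (0.9974), Soga1 (0.9971), Hapln1 (0.9967) and Ackr3 (0.9967). Rhob, a small GTPase of the cytoskeleton, had group means of 222.7, 242.3, 145.2 and 210.0 on day 0 and 1819, 2334, 2288 and 2958 on day 4, with WT first and then Mll1-KO, Mll2-KO and the double-KO. Hapln1, which links hyaluronan to proteoglycans, was at or below 0.7636 on day 0 and at 561.5, 1027, 1346 and 3164 on day 4. For the gamma sum they were Klc1 and Nbl1 (both 0.9963), Cux1 and Fkbp10 (both 0.9951) and Zfp469 (0.995). Klc1, a kinesin light chain, had 579.5, 558.9, 629.2 and 553.5 on day 0 and 1249, 1544, 1318 and 1697 on day 4. These likenesses run over 8 group means that are dominated by the difference between days, and are descriptions.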
